A study of Mus musculus with 8 samples.

Results

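The matrix metalloproteinases (Mmp), the ADAMTS proteases (Adamts), the ADAMTS-like proteins (Adamtsl) and the tissue inhibitors of metalloproteinases (Timp) were taken from the count table by symbol, as every gene named Mmp, Adamts or Adamtsl with a number and Timp1 to Timp4. This gave 51 of 25509 genes, made up of 23 Mmp, 19 Adamts, 5 Adamtsl and 4 Timp genes. The RNA came from the lungs of 4 wild-type C57Bl6/J mice, numbered 2, 7, 8 and 10. Lung cells without the leukocyte antigen CD45, the epithelial antigen CD326 and the endothelial antigen CD31 were sorted by surface CD249, the aminopeptidase encoded by Enpep, into CD249+ fibroblasts (4 libraries) and CD249- fibroblasts (4 libraries). Both fractions of a mouse came from the same lung, and the gate removes other cells without selecting for a fibroblast antigen.

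Mmp and Adamts proteins are zinc-dependent proteases that cut collagens, proteoglycans, elastic fibre proteins and other parts of the matrix around cells. Most are made as inactive proenzymes. Adamtsl proteins resemble the non-catalytic domains of Adamts proteins and lack a protease domain, and several of them bind fibrillin microfibrils. Timp proteins bind the active site of these proteases and block it. In the lung, fibroblasts make much of the matrix and many of the enzymes that trim it, and the alveolar wall depends on an intact elastic fibre network.

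Library totals ran from 28932788 to 30921169 estimated counts in the CD249+ fraction and from 23011383 to 31906414 in the CD249- fraction, with 15456 to 16526 genes detected per library. Enpep stood at 175 to 329 CPM (counts scaled to the library total) in the CD249+ fraction and 5.13 to 17.3 CPM in the CD249- fraction, so every library followed its label. Fibroblast markers (Col1a1, Col1a2, Col3a1, Pdgfra, Dcn, Lum, Fbln1 and Tcf21) summed to 13760 to 25169 CPM in the CD249+ fraction and 5268 to 12793 CPM in the CD249- fraction, and 7 of the 8 were called higher (median log2 fold change 1.31). Markers of cells that the gate removes were detected in both fractions. All 12 endothelial markers were called lower in the CD249+ fraction (median log2 fold change -1.45), summing to 4455 to 8774 CPM there and 13799 to 19024 CPM in the CD249- fraction, with none at 0. Leukocyte markers summed to 2105 to 4446 CPM in the CD249+ fraction and 2943 to 5149 CPM in the CD249- fraction, with 2 of 12 tested called lower. Epithelial markers summed to 465 to 10091 CPM in the CD249+ fraction, the highest value being that of mouse 10, and to 156 to 680 CPM in the CD249- fraction, with 3 of 9 tested called higher. Of 6 markers each, 5 of smooth muscle and 5 of pericytes were called higher, while 6 of platelets and 4 of mesothelium were called lower and 1 of mesothelium higher. In sorted bulk RNA, fewer cells of a type and less RNA per cell cannot be told apart, and the part of these differences in cell makeup in the results below was not tested.

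Several Mmp genes lie side by side, and their start sites carry shared letters. On chromosome 9 a row of 10 Mmp genes spans 427 kb (GRCm38), in the order Mmp13, Mmp12, Mmp1b, Mmp3, Mmp1a, Mmp10, Mmp8, Mmp27, Mmp20 and Mmp7, with no other protein-coding gene lying wholly between neighbours. RefSeq start sites were at hand for 36 of the 51 family members. The 250 bases upstream of each start were searched on both strands for the AP-1 element (TGANTCA) and the TATA box (TATAAA), whose letters cannot overlap. Of 32851 such windows in the mouse genome, 6.75% held the AP-1 letters, 12.4% the TATA letters and 1.21% both. Among the family members with a window, 7 held both, and all 7 belong to the chromosome 9 row: Mmp13, Mmp1b, Mmp3, Mmp1a, Mmp10, Mmp20 and Mmp7. A few of these windows are shown because they carry the same 2 elements while the levels of their genes differ widely. The last 100 bases before each RefSeq start (GRCm38.p6, plus strand) are given 5′ to 3′, with both elements in capitals.
Mmp3, chr9:7445722-7445821: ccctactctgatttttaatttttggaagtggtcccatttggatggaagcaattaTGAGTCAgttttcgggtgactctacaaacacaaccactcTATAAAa
Mmp13, chr9:7272414-7272513: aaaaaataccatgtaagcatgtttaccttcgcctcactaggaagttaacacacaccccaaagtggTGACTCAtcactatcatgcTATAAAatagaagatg
Mmp1a, chr9:7464041-7464140: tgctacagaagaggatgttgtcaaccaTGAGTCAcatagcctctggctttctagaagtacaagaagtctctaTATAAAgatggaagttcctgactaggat
Mmp10, chr9:7502242-7502341: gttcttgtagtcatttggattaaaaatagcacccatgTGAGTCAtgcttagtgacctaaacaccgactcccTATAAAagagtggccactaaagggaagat
Mmp7, chr9:7691990-7692089: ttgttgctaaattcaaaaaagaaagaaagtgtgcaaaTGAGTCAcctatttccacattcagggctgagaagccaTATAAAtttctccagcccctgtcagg

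Of these genes, Mmp3 alone was abundant. Mmp3, stromelysin-1, which cuts proteoglycans and activates other proenzymes, had 286, 384, 501 and 359 CPM in the CD249+ fraction (mice 2, 7, 8 and 10), against 177, 309, 226 and 283 CPM in the CD249- fraction. It was higher in the CD249+ fraction in all 4 mice, while the ranges of the fractions overlapped. Its neighbours in the row were close to silent in the same libraries. Mmp1a, Mmp1b, Mmp20 and Mmp7 had no count in any of the 8 libraries. This allows up to 0.094 to 0.13 CPM per library (3 counts of the library total without TMM scaling, counting error only). Mmp10 averaged 0 CPM in the CD249+ fraction and 0.0187 CPM in the CD249- fraction. Mmp13, a collagenase, had 0.626, 2.66, 0 and 0 CPM in the CD249+ fraction and 0.332, 0, 0 and 0 CPM in the CD249- fraction, so 1 library carried most of each mean. Both of these genes lay below the filter on low counts. Mmp12, the macrophage elastase, ranged from 0.142 to 3.1 CPM in the CD249+ fraction and from 0.18 to 2.25 CPM in the CD249- fraction. Mmp8, the neutrophil collagenase, averaged 2.68 CPM in the CD249+ fraction and 4.49 CPM in the CD249- fraction, and Mmp27 ranged from 1.03 to 6.73 CPM in the CD249+ fraction and from 0 to 3.05 CPM in the CD249- fraction. A match of letters is a description of the sequence and does not show that a factor binds there.

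**Figure D1:**
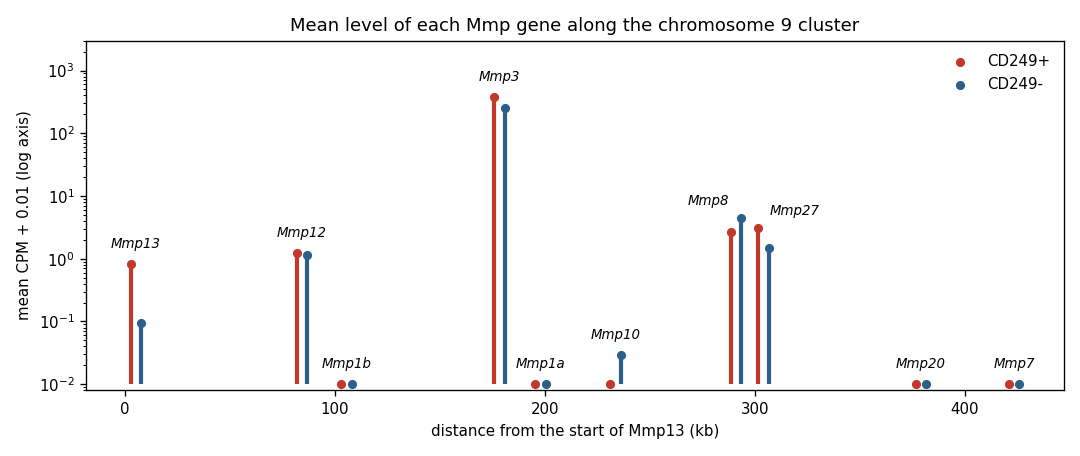
Mean CPM (n = 4 libraries per fraction, plotted as CPM + 0.01 on a log axis) of the 10 Mmp genes of the chromosome 9 row against distance from the start of Mmp13 in kb. Mmp3, at 383 CPM in the CD249+ fraction and 249 CPM in the CD249- fraction, stands far above every neighbour, and Mmp1a, Mmp1b, Mmp20 and Mmp7 sit at 0.

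Of the 51 family members 40 passed the filter on low counts and were tested with edgeR's quasi-likelihood test, 22 of them called higher in the CD249+ fraction and 3 lower at an adjusted p under 0.05. Among all 14524 genes tested, 16.9% were called higher and 13.9% lower, 30.8% in all. This test did not pair the 2 fractions of a mouse. A fit with mouse as a block called 25 members higher and 3 lower, against 19.3% and 17.1% of all genes tested. It kept every call of a member and added Timp1, Adamts5 and Adamts12. The 22 rises of the unpaired test were spread over 9 of 16 tested Adamts, 4 of 5 Adamtsl, 3 of 4 Timp and 6 of 15 Mmp genes. All 3 falls were Mmp genes. Each of the 22 rises was seen in all 4 mice, and so was each of the 3 falls. The same held for nearly all called genes, 2431 of 2455 called higher and 1989 of 2013 called lower, so it is not particular to the members. The median log2 fold change of the tested members was 1.05, against -0.02 over all genes tested. Of the members, 17 were both called higher and up at least 2-fold, against 10.4% of all genes tested. For 20 members every CD249+ library lay above every CD249- library, a state reached by 17.8% of all genes tested. For 2 members every CD249+ library lay below every CD249- library, against 15.8% of all genes tested. Of the 22 rises 15 had a log2 fold change above the fibroblast marker median of 1.31, and 2 (Adamts17 and Adamts8) exceeded the 2.87 of Tcf21, the largest among those markers. The 22 were selected by their calls and the markers were not. The median of all 40 tested members, 1.05, lay below the fibroblast marker median. It also lay below the medians of the smooth muscle markers (1.72) and the pericyte markers (1.83), which exceeded that of the fibroblast markers. With library sizes unscaled by TMM, 2106 genes were called higher and 2690 lower, against 2455 higher and 2013 lower with TMM. Among the members 19 were then called higher and 3 lower, and no called member changed direction. Haemoglobin RNA divided the mice into pairs. The 8 haemoglobin genes summed to 129 and 366 CPM in mice 7 and 8 of the CD249+ fraction and to 15.5 and 12.1 CPM in mice 2 and 10. In the CD249- fraction the sums were 497 and 502 CPM in mice 7 and 8 and 26.8 and 15.8 CPM in mice 2 and 10. Within mice 7 and 8, 22 of 41 tested members were called higher and 3 lower, with 1778 and 1251 of 14763 genes tested. Within mice 2 and 10, 10 of 41 tested members were called higher and 1 lower, with 570 and 98 of 14680 genes tested, 668 genes in all. Both fits set 2 libraries against 2 without pairing, and no called member changed direction in either. Mice 2 and 10 also differed from each other in the CD249+ fraction. Their epithelial marker sums were 465 and 10091 CPM, and their endothelial sums 8774 and 4618 CPM. The part of haemoglobin or of these markers in the number of calls was not tested.

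**Figure D2:**
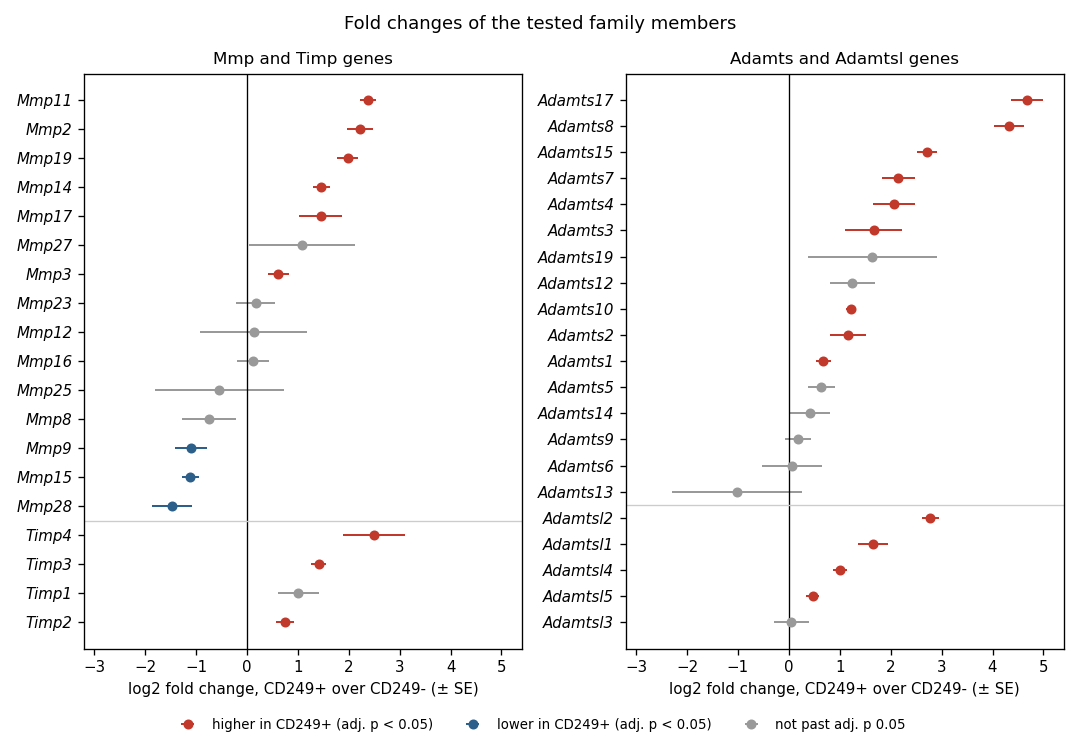
Log2 fold change of CD249+ over CD249- with its standard error (n = 4 libraries per fraction) for the 40 tested members, by family. Red points were called higher, blue points lower and grey points neither. Adamts17 and Adamts8 lie farthest to the right, and the blue points are Mmp9, Mmp15 and Mmp28.

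The gelatinases moved in opposite directions. Mmp2 (ENSMUSG00000031740.7, chromosome 8, 92827291 to 92853420, plus strand, GRCm38), gelatinase A, which digests denatured collagen and type IV collagen, had 883, 1430, 1745 and 1682 CPM in the CD249+ fraction (mice 2, 7, 8 and 10), against 209, 310, 312 and 405 CPM in the CD249- fraction. The lowest CD249+ library, that of mouse 2, still exceeded every CD249- library. Mmp2 rose 4.65-fold (log2 fold change 2.22, SE 0.25, edgeR adjusted p = 0.000182). Mmp9, gelatinase B, an enzyme stored in neutrophil granules and also made by other cells, fell to 8.52 ± 2.5 CPM in the CD249+ fraction, against 18.3 ± 6.79 CPM in the CD249- fraction (SD, n = 4, log2 fold change -1.10, edgeR adjusted p = 0.0263). The fractions overlapped, since the CD249- library of mouse 2 had 9.07 CPM. The Mmp9 call was lost without mouse 2 or 7 of the CD249+ fraction or mouse 7, 8 or 10 of the CD249- fraction (log2 fold change -1.08 to -0.90, edgeR adjusted p = 0.0563 to 0.077). It was also lost without both libraries of mouse 7, 8 or 10 (-1.25 to -0.80, edgeR adjusted p = 0.0583 to 0.164) and with limma-voom on all libraries (-1.05, adjusted p = 0.0506). These omissions, like those described below for other genes, were fitted without pairing the libraries of a mouse. A fit of all libraries with mouse as a block kept the Mmp9 call (-1.05, edgeR adjusted p = 0.0104). S100a8, a neutrophil gene, averaged 6.69 CPM in the CD249+ fraction and 13.7 CPM in the CD249- fraction (edgeR adjusted p = 0.0779), and its part in the Mmp9 difference was not tested.

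The enzyme that activates pro-Mmp2 on the cell surface rose with it. Mmp14, membrane-type 1 Mmp, which forms a complex with Timp2 and pro-Mmp2, had 284, 420, 444 and 324 CPM in the CD249+ fraction (mice 2, 7, 8 and 10), against 110, 145, 127 and 152 CPM in the CD249- fraction. The lowest CD249+ library exceeded the highest CD249- library, and the rise was 2.76-fold (log2 fold change 1.46, SE 0.17, edgeR adjusted p = 0.000171). The other membrane-type genes did not move as a group. Mmp17, which carries a lipid anchor, rose to 19.0 ± 10.0 CPM in the CD249+ fraction, against 6.97 ± 2.31 CPM in the CD249- fraction (SD, n = 4, log2 fold change 1.45, edgeR adjusted p = 0.027). Its call was lost without mouse 7 or 10 of the CD249+ fraction or mouse 2 or 8 of the CD249- fraction (log2 fold change 1.15 to 1.40, edgeR adjusted p = 0.0634 to 0.0821), and with limma-voom on all libraries (1.29, adjusted p = 0.0856). Blocking by mouse kept the Mmp17 call (1.33, edgeR adjusted p = 0.00128). Mmp15, membrane-type 2 Mmp, went the other way, with 47.0, 38.6, 33.3 and 52.6 CPM in the CD249+ fraction (mice 2, 7, 8 and 10) and 117, 83.1, 76.6 and 94.8 CPM in the CD249- fraction. All 4 CD249+ values lay below all 4 CD249- values (log2 fold change -1.11, SE 0.17, edgeR adjusted p = 0.00104). Mmp15 fell by less than the endothelial marker median of -1.45, and the part of endothelial RNA in its level was not tested. Mmp16 and Mmp25, the other tested membrane-type genes, were not called, at log2 fold changes of 0.12 and -0.54.

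Both tested stromelysins were called higher. Mmp11, stromelysin-3, which is activated by furin inside the cell, had 104, 101, 82.6 and 102 CPM in the CD249+ fraction (mice 2, 7, 8 and 10), against 17.0, 21.5, 14.8 and 21.6 CPM in the CD249- fraction. This 5.19-fold rise was even across the mice (log2 fold change 2.38, SE 0.15, edgeR adjusted p = 5.74e-06) and had the smallest p of the Mmp genes. Mmp3 rose less, 1.54-fold (log2 fold change 0.62, SE 0.21, edgeR adjusted p = 0.0449). This call did not survive removal of mouse 7, 8 or 10 of the CD249+ fraction or mouse 2, 8 or 10 of the CD249- fraction (log2 fold change 0.46 to 0.69, edgeR adjusted p = 0.0563 to 0.123), or scaling by library size alone (0.52, edgeR adjusted p = 0.0858). Blocking by mouse kept the Mmp3 call (0.62, edgeR adjusted p = 0.00777).

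Among the remaining Mmp genes Mmp19, which cuts basement membrane proteins, rose, with 49.7, 52.0, 68.0 and 43.0 CPM in the CD249+ fraction (mice 2, 7, 8 and 10), against 9.13, 15.1, 16.7 and 13.0 CPM in the CD249- fraction. Every CD249+ value exceeded every CD249- value (log2 fold change 1.98, SE 0.21, edgeR adjusted p = 0.000106). Its exons share 789 bases with Tmem198b on the opposite strand, which had mean counts of 894 in CD249+ and 900 in CD249- libraries. Mmp28, epilysin, fell to 9.38 ± 6.27 CPM in the CD249+ fraction, against 26.0 ± 6.97 CPM in the CD249- fraction (SD, n = 4, log2 fold change -1.47, SE 0.40, edgeR adjusted p = 0.0205), with no overlap. Its call was lost without mouse 7 or 8 of the CD249+ fraction or the CD249- library of mouse 2 (log2 fold change -1.44 to -1.26, edgeR adjusted p = 0.052 to 0.056). Blocking by mouse kept the Mmp28 call (-1.64, edgeR adjusted p = 0.000545). Mmp23 varied widely within each fraction, at 23.4 to 65.3 CPM in the CD249+ fraction and 19.6 to 60.7 CPM in the CD249- fraction, and was not called (log2 fold change 0.17, edgeR adjusted p = 0.777). Mmp8, Mmp12 and Mmp27 were tested and not called, at mean levels under 5 CPM. Mmp10, Mmp13, Mmp21 and Mmp24 did not pass the filter.

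The proteases that cut aggrecan and versican included 2 of the 4 largest rises among the members, those of Adamts8 and Adamts15. Adamts8 had 190, 201, 153 and 220 CPM in the CD249+ fraction (mice 2, 7, 8 and 10), against 7.74, 10.6, 5.05 and 14.6 CPM in the CD249- fraction. It rose 20-fold (log2 fold change 4.32, SE 0.30, edgeR adjusted p = 1.03e-05). Adamts15 had 186, 205, 157 and 166 CPM in the CD249+ fraction, against 23.5, 22.9, 23.6 and 39.3 CPM in the CD249- fraction of the same mice, a 6.53-fold rise (log2 fold change 2.71, SE 0.19, edgeR adjusted p = 1.11e-05). Both sets of values were separated widely in every mouse. The 2 genes are neighbours on chromosome 9 (GRCm38), Adamts15 on the minus strand at 30899155 to 30922452 and Adamts8 on the plus strand at 30942562 to 30963838, so that they are read away from each other across a gap of 20.1 kb. Adamts1 and Adamts5 are also neighbours, on chromosome 16 with 53.1 kb between them, and moved less. Adamts1, which cuts versican, rose to 906 ± 109 CPM in the CD249+ fraction, against 566 ± 81.6 CPM in the CD249- fraction (SD, n = 4, log2 fold change 0.68, edgeR adjusted p = 0.00431). Adamts5, aggrecanase-2, stood at 36.0 ± 11.9 and 23.2 ± 6.12 CPM in the CD249+ and CD249- fractions and was not called (SD, n = 4, log2 fold change 0.64, edgeR adjusted p = 0.0954). It was called in a fit blocked by mouse (edgeR adjusted p = 0.01) and on leaving out mouse 2 of the CD249+ fraction (log2 fold change 0.81, edgeR adjusted p = 0.0276).

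Adamts4, aggrecanase-1, rose to 53.5 ± 27.7 CPM in the CD249+ fraction, against 12.9 ± 6.10 CPM in the CD249- fraction (SD, n = 4, log2 fold change 2.06, SE 0.41, edgeR adjusted p = 0.00407). It varied between mice, and mouse 8 had the highest value in both fractions, 92.7 CPM in the CD249+ and 20.5 CPM in the CD249- fraction. Adamts9, another versican-cutting enzyme, did not differ by more than its spread, at 21.4 ± 8.93 CPM in the CD249+ fraction and 18.9 ± 3.11 CPM in the CD249- fraction (SD, n = 4, edgeR adjusted p = 0.645). Adamts20 did not pass the filter. Of the 7 enzymes in this group 6 were thus tested and 4 were higher.

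Enzymes and binding proteins of the fibrillin network included the largest rise of all members. Adamts17 (ENSMUSG00000058145.15, chromosome 7, 66839735 to 67153171, plus strand, GRCm38), which in humans is linked to a fibrillin disorder with short stature, had 51.9, 49.9, 39.7 and 55.5 CPM in the CD249+ fraction (mice 2, 7, 8 and 10), against 2.69, 1.37, 2.67 and 0.99 CPM in the CD249- fraction. Every CD249- value was under 5 CPM and every CD249+ value far above it, a 25.7-fold rise (log2 fold change 4.68, SE 0.32, edgeR adjusted p = 8.81e-06). Adamts10, which binds fibrillin-1 and is linked in humans to a related disorder, was far more abundant and changed less. It had 530, 590, 491 and 492 CPM in the CD249+ fraction, against 238, 238, 222 and 206 CPM in the CD249- fraction of the same mice (log2 fold change 1.22, SE 0.10, edgeR adjusted p = 2.91e-05). Both fractions varied little between mice, and the standard error was the smallest of those printed here for Adamts genes. Adamts6 and Adamts19 were tested and not called, at means under 5 CPM.

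Of the 5 protease-free relatives 4 were called higher and none lower. Adamtsl2, which binds fibrillin-1 and a latent TGF-beta binding protein, had 304, 261, 350 and 371 CPM in the CD249+ fraction (mice 2, 7, 8 and 10), against 34.8, 49.5, 51.7 and 50.7 CPM in the CD249- fraction. It rose 6.88-fold with no overlap (log2 fold change 2.78, SE 0.16, edgeR adjusted p = 4.36e-06). Adamtsl4, which promotes fibrillin-1 microfibrils, had 97.9, 102, 115 and 102 CPM in the CD249+ fraction, against 40.7, 51.2, 66.6 and 50.2 CPM in the CD249- fraction of the same mice (log2 fold change 1.00, SE 0.14, edgeR adjusted p = 0.000622). Adamtsl1, or punctin, had 24.1, 36.7, 46.2 and 37.3 CPM in the CD249+ fraction, against 6.81, 17.9, 12.4 and 8.94 CPM in the CD249- fraction (log2 fold change 1.65, SE 0.30, edgeR adjusted p = 0.00263). The calls of these 3 genes were kept whichever library was left out. Adamtsl5 rose least, with 138, 156, 160 and 133 CPM in the CD249+ fraction and 108, 119, 80 and 115 CPM in the CD249- fraction (log2 fold change 0.47, SE 0.13, edgeR adjusted p = 0.0228). It was no longer called once mouse 7 or 8 of the CD249+ fraction was left out (log2 fold change 0.43 to 0.44, edgeR adjusted p = 0.0611 to 0.0644) or with scaling by library size alone (edgeR adjusted p = 0.0562). The fit blocked by mouse called Adamtsl5 (0.48, edgeR adjusted p = 0.0185). Adamtsl3 was not called, at 16.8 ± 7.76 CPM in the CD249+ fraction and 16.2 ± 4.59 CPM in the CD249- fraction (SD, n = 4).

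The procollagen N-proteinases, which remove the amino-terminal propeptide of fibrillar collagens, rose in 2 of 3 cases. Adamts2 had 376, 949, 790 and 888 CPM in the CD249+ fraction (mice 2, 7, 8 and 10), against 173, 421, 260 and 491 CPM in the CD249- fraction. Mouse 2 was lowest in both fractions, and the fractions overlapped although each mouse had more in the CD249+ fraction (log2 fold change 1.16, SE 0.36, edgeR adjusted p = 0.0336). The call was lost on leaving out mouse 7, 8 or 10 of the CD249+ fraction or mouse 2 or 8 of the CD249- fraction (log2 fold change 0.96 to 1.13, edgeR adjusted p = 0.0635 to 0.0901). These omissions did not pair the libraries, and the fit of all libraries blocked by mouse called Adamts2 (log2 fold change 1.19, edgeR adjusted p = 9.37e-05). Adamts3 was scarce, at 3.91 ± 1.72 CPM in the CD249+ fraction and 1.23 ± 0.75 CPM in the CD249- fraction (SD, n = 4, log2 fold change 1.67, edgeR adjusted p = 0.0462). That call was kept without mouse 8 of the CD249- fraction and lost without any other single library (log2 fold change 1.32 to 1.94, edgeR adjusted p = 0.051 to 0.143). On all 8 libraries it was lost with scaling by library size alone (edgeR adjusted p = 0.0564) and when genes were not filtered on low counts (edgeR adjusted p = 0.0535). It was kept when blocked by mouse (log2 fold change 1.82, edgeR adjusted p = 0.031). Adamts14 was not called (log2 fold change 0.41, edgeR adjusted p = 0.472).

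Of the enzymes that cut cartilage oligomeric matrix protein, Adamts7 rose to 6.97 ± 0.605 CPM in the CD249+ fraction, against 1.56 ± 0.505 CPM in the CD249- fraction (SD, n = 4, log2 fold change 2.15, edgeR adjusted p = 0.000773). Its exons share 122 bases with Tbc1d2b on the other strand, a gene with mean counts of 5540 in CD249+ and 2850 in CD249- libraries, and the libraries do not mark strand. The part of Tbc1d2b reads in the Adamts7 counts was not tested. Adamts12 stood at 7.41 ± 1.57 CPM in the CD249+ fraction and 3.13 ± 1.83 CPM in the CD249- fraction (SD, n = 4) with no overlap, but was not called (log2 fold change 1.25, edgeR adjusted p = 0.0593, against 0.0173 when blocked by mouse). Leaving out mouse 7 of the CD249- fraction gave a call (log2 fold change 1.57, edgeR adjusted p = 0.0366). Adamts13, the von Willebrand factor protease, averaged under 1 CPM in both fractions and was not called, and Adamts16 and Adamts18 did not pass the filter. Adamts3, Adamts12 and the uncalled members with means under 20 CPM were named after their values had been seen.

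**Figure D3:**
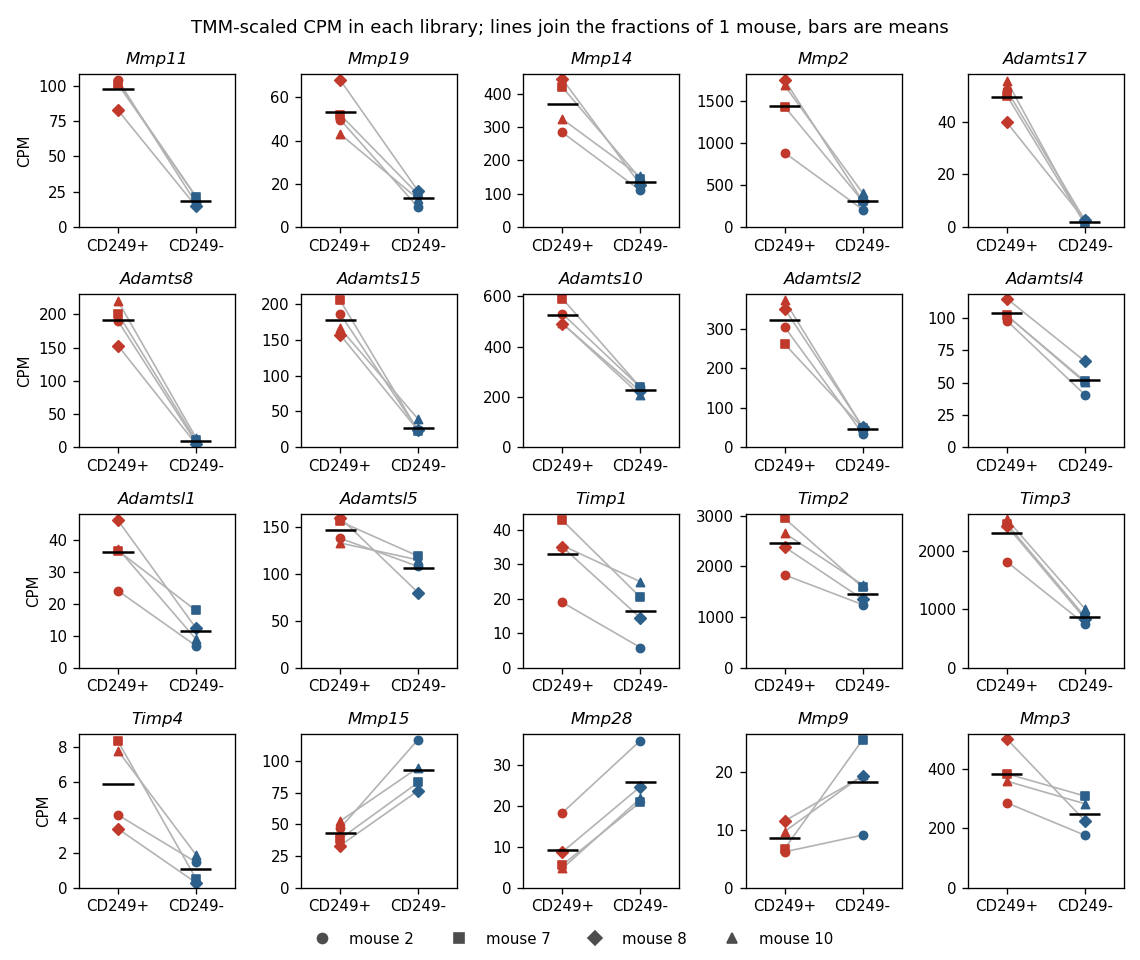
CPM in each library for 20 members, with CD249+ left of CD249-, grey lines joining the fractions of a mouse and black bars at the means (n = 4). In the panels of Adamts8, Adamts15, Adamts17 and Adamtsl2 the fractions lie far apart, in Mmp15, Mmp28 and Mmp9 the lines climb towards CD249-, and mouse 2 (circles) is low in both fractions for Mmp2, Timp1, Timp2 and Timp3.

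All 4 inhibitor genes were measured, and 3 were called higher. They lie apart in GRCm38, Timp1 on chromosome X at 20870166 to 20874735, Timp2 on chromosome 11 at 118301069 to 118355740, Timp3 on chromosome 10 at 86300372 to 86349506 and Timp4 on chromosome 6 at 115241892 to 115252205. Timp3, a matrix-bound inhibitor that also blocks aggrecanases and ADAM17, had 1817, 2469, 2436 and 2548 CPM in the CD249+ fraction (mice 2, 7, 8 and 10), against 748, 876, 841 and 1012 CPM in the CD249- fraction. The rise was 2.67-fold, and the fractions lay far apart in each mouse (log2 fold change 1.41, SE 0.15, edgeR adjusted p = 0.000134). Timp2, which inhibits Mmp2 and also helps to activate it through Mmp14, had 1833, 2953, 2385 and 2660 CPM in the CD249+ fraction, against 1245, 1589, 1354 and 1638 CPM in the CD249- fraction (log2 fold change 0.75, SE 0.17, edgeR adjusted p = 0.00812). The lowest CD249+ library of Timp2 exceeded the highest CD249- library, and the call was lost once mouse 8 was left out (log2 fold change 0.74, edgeR adjusted p = 0.0613). Blocking by mouse kept the Timp2 call on all libraries (edgeR adjusted p = 0.000141).

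The other inhibitors were less abundant. Timp1, an inducible soluble inhibitor, had 18.9, 42.7, 35.0 and 35.4 CPM in the CD249+ fraction, against 5.81, 20.4, 14.4 and 24.9 CPM in the CD249- fraction (mice 2, 7, 8 and 10). It was higher in the CD249+ fraction in all 4 mice, while mouse 2 was low in both fractions and the ranges overlapped. Timp1 was not called (log2 fold change 1.01, SE 0.40, edgeR adjusted p = 0.0827), whereas the fit blocked by mouse called it (log2 fold change 1.13, edgeR adjusted p = 0.0022). Removing mouse 2 of the CD249+ fraction or mouse 10 of the CD249- fraction also gave a call (log2 fold changes of at most 1.28, edgeR adjusted p = 0.0449 and 0.0493). Timp4 was scarce, with 4.15, 8.35, 3.36 and 7.81 CPM in the CD249+ fraction, against 1.46, 0.525, 0.292 and 1.89 CPM in the CD249- fraction (log2 fold change 2.49, SE 0.61, edgeR adjusted p = 0.012). The Timp4 call was lost once mouse 7 was left out (log2 fold change 2.06, edgeR adjusted p = 0.0823) and kept on all libraries when blocked by mouse (edgeR adjusted p = 0.00554). Timp4 lies on the opposite strand within Syn2 and shares 90 exon bases with it. Syn2 had mean counts of 1230 in CD249+ and 123 in CD249- libraries, against at most 236 for Timp4, and its part in the Timp4 counts was not tested. Timp1 and Timp3 lie likewise within Syn1 and Syn3, whose mean counts were 47 and 35 in CD249+ and 37.5 and 23 in CD249- libraries.

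Divided by exon length, which allows levels to be set side by side between genes, inhibitors and a few proteases dominated. Timp2 was highest in both fractions at 631 ± 122 CPM per kb in the CD249+ fraction and 374 ± 48.2 CPM per kb in the CD249- fraction (SD, n = 4). In the CD249+ fraction it was followed by Mmp2 at 426 ± 116, Timp3 at 285 ± 41.4, Mmp3 at 212 ± 49.4 and Adamts1 at 171 ± 20.5 CPM per kb, the range of each over the libraries overlapping that of the next. In the CD249- fraction Mmp2 stood at 91.6 ± 23.7, Timp3 at 107 ± 13.5, Mmp3 at 138 ± 32.7 and Adamts1 at 107 ± 15.4 CPM per kb, ranges that overlap one another. With the longest transcript as length, Timp3 stood at 491 CPM per kb in the CD249+ fraction, above Mmp2 at 466, and at 184 CPM per kb in the CD249- fraction, above Mmp3 at 138, so the order of Timp3 against these proteases depends on the length used. Of the steepest risers, Adamts8 ranked 9th of the 51 members in the CD249+ fraction and 23rd in the CD249- fraction, and Adamts17 ranked 20th and 34th. Adamts8 stood at 41.4 ± 6.10 CPM per kb in the CD249+ fraction and 2.06 ± 0.89 in the CD249- fraction, and Adamts17 at 6.34 ± 0.874 and 0.248 ± 0.113 CPM per kb in the CD249+ and CD249- fractions (SD, n = 4).

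**Figure D4:**
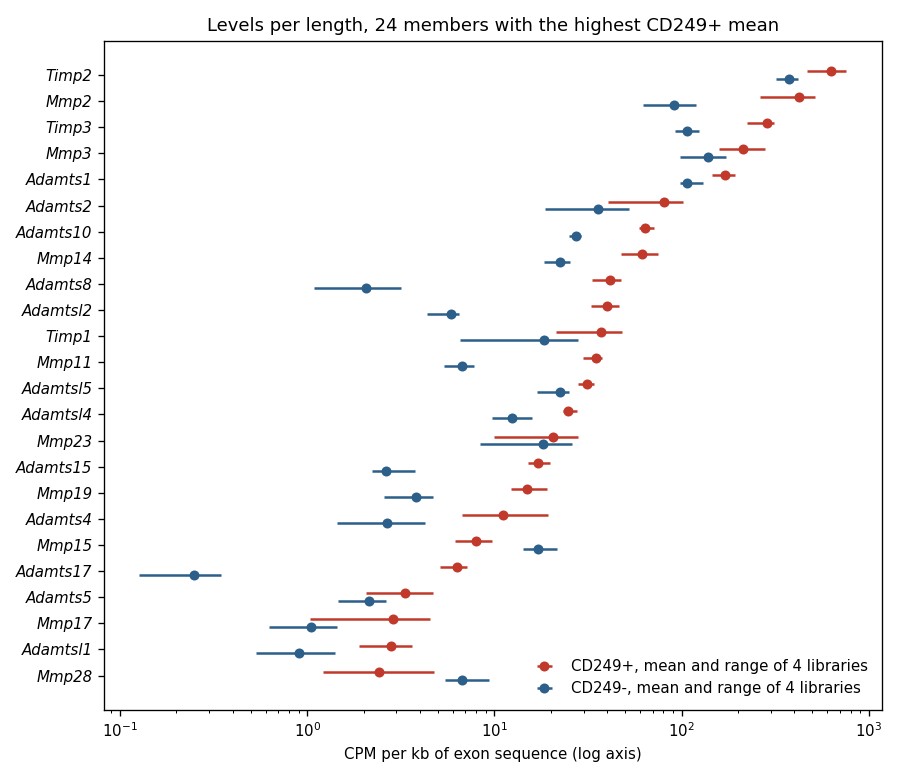
Mean and range over 4 libraries of CPM per kb of exon sequence (log axis) in CD249+ (red) and CD249- (blue) cells for the 24 members with the highest CD249+ mean. Timp2 leads at 631 CPM per kb in the CD249+ fraction and 374 CPM per kb in the CD249- fraction, and for Mmp15 and Mmp28 the blue point lies to the right of the red one.

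Summed by family, Mmp genes took 2479 ± 536 CPM in the CD249+ fraction and 924 ± 163 CPM in the CD249- fraction, and Adamts genes 2745 ± 358 and 1240 ± 145 CPM in the CD249+ and CD249- fractions (SD, n = 4). Adamtsl genes took 625 ± 60.2 CPM in the CD249+ fraction and 232 ± 21.1 CPM in the CD249- fraction, and Timp genes 4814 ± 802 and 2343 ± 298 CPM. All 4 sums were higher in the CD249+ fraction in each mouse. On the scale per kb, the summed Timp level divided by the summed Mmp and Adamts level was 0.812, 0.899, 0.689 and 0.819 in the CD249+ fraction (mice 2, 7, 8 and 10), against 1.07, 0.983, 0.942 and 1.02 in the CD249- fraction. The ratio was lower in the CD249+ fraction of every mouse and the fractions did not overlap. Mmp2 weighed heavily in it. That gene averaged 426 of the mean 1191 CPM per kb of summed Mmp and Adamts genes in the CD249+ fraction. In the CD249- fraction Mmp2 averaged 91.6 of 499 CPM per kb. The lower ratio therefore does not show a shift shared by the members of these families. The value is a ratio of RNA levels, and is given with no test.

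**Figure D5:**
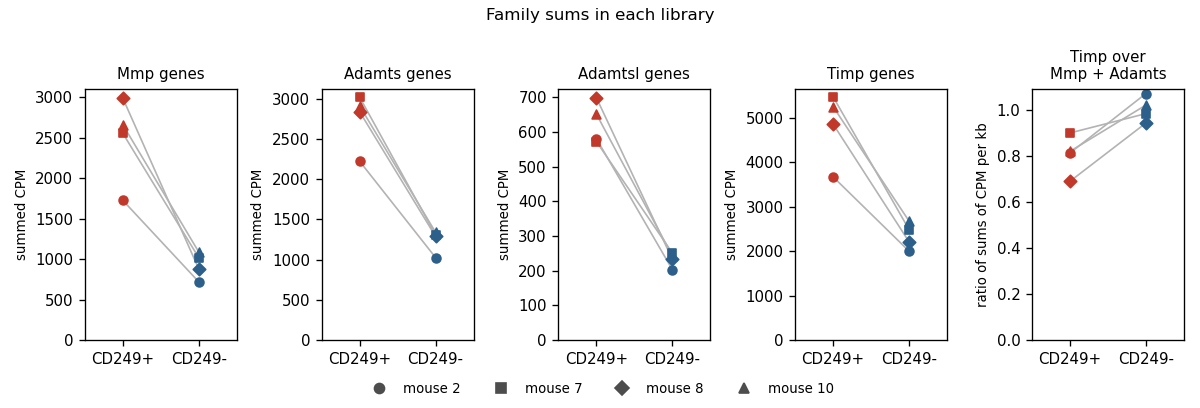
Summed CPM of each family in each library and, in the last panel, the ratio of summed Timp to summed Mmp and Adamts CPM per kb, with CD249+ left of CD249- and lines joining the fractions of a mouse. Family sums are higher in the CD249+ fraction in all 4 mice, and the ratio lies between 0.689 and 0.899 in the CD249+ fraction and between 0.942 and 1.07 in the CD249- fraction.

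Mouse 2 was often the lowest in both fractions. Of the 40 tested members 18 (45%) had their lowest CD249+ value and their lowest CD249- value in mouse 2, a state found for 12.7% of all genes tested. For mice 7, 8 and 10 the shares were 2.5%, 10% and 5% of the tested members, against 10%, 7.22% and 7.34% of all genes tested. The 18 include Mmp2, Mmp3, Mmp14, Mmp17, Mmp23, Adamts2, Adamts5, Timp1, Timp2 and Timp3. In the same libraries the fibroblast marker sum was 13760 CPM in the CD249+ fraction of mouse 2 and 23825 to 25169 CPM in those of the other mice, and 5268 CPM in the CD249- fraction of mouse 2 and 7511 to 12793 CPM in the others. The endothelial sum was highest in mouse 2 in both fractions, at 8774 CPM in the CD249+ and 19024 CPM in the CD249- fraction, and the part of these differences in the members' values was not tested.

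Of the other genes that act on or with these families, some rose and some fell in each list described. Of 11 tested ADAM proteases, the membrane-anchored relatives, 3 were higher, 2 lower and 6 not called, with a median log2 fold change of -0.20. Adam9 rose (0.88, edgeR adjusted p = 0.000173), as did Adam33 (1.15) and Adam17, the TNF-alpha converting enzyme (0.41), while Adam15 (-0.99) and Adam10 (-0.46) fell. Of the astacins and pappalysins, 4 of 7 were tested. Pappa and Pappa2, which cut IGF-binding proteins, rose by 2.08 and 3.44 on the log2 scale, Tll1 fell by 1.53, and Bmp1, the procollagen C-proteinase, was not called at 0.21. Of 15 tested inhibitors, activators and clearance genes 8 were higher, 1 lower and 6 not called (median 0.67). Among them Reck, a membrane-anchored Mmp inhibitor, averaged 158 CPM in the CD249+ fraction and 40.3 CPM in the CD249- fraction (log2 fold change 1.97, edgeR adjusted p = 1.65e-05). Lrp1, the endocytic receptor that clears proteases and Timp complexes, averaged 1318 CPM in the CD249+ fraction and 374 CPM in the CD249- fraction (log2 fold change 1.82). Serpine2 and Sdc4 rose by 3.19 and 2.12 on the log2 scale, and Plaur, the urokinase receptor, fell by 1.07.

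Of 12 tested substrate genes 9 were higher, 1 lower and 2 not called (median log2 fold change 1.37). Col1a1 and Col3a1 among the higher genes and Dcn among those not called are also fibroblast markers counted above. The proteoglycan gene Bgn averaged 1600 CPM in the CD249+ fraction and 396 CPM in the CD249- fraction (log2 fold change 2.01), the elastin gene Eln 2684 and 708 CPM (1.92), and Thbs1 2122 and 328 CPM (2.69) in the CD249+ and CD249- fractions. The fibrillin-1 gene Fbn1 averaged 439 CPM in the CD249+ fraction and 168 CPM in the CD249- fraction (log2 fold change 1.38). Versican (Vcan), cut by the Adamts1 group, averaged 41.0 CPM in the CD249+ fraction and 20.9 CPM in the CD249- fraction (log2 fold change 0.97, edgeR adjusted p = 0.0171). Aggrecan (Acan) had no count in any library. Adam33, Plaur, Vcan, Acan, Comp and S100a8 were likewise named after their values had been seen. Comp, the substrate of Adamts7 and Adamts12, fell to 1.25 CPM in the CD249+ fraction, against 4.96 CPM in the CD249- fraction (log2 fold change -1.98, edgeR adjusted p = 0.0286).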

How the data were processed

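Total RNA (10 ng) was reverse transcribed from oligo(dT), amplified and sequenced as single 75 bp reads, per the labels' protocols; strand is not marked, and amplified reads are not independent molecules. The deposited values are estimated counts (expected counts) per gene, 12% of them not whole. The submitters' processing notes list RSEM 1.2.28 and STAR 2.6.1 along with R 3.6.3 and DESeq2 1.26.0, with no roles. They name GRCh38, a human build, although the identifiers are those of mouse genes, and the build used for counting is therefore treated as unknown. The 92 spike-in entries were 0 and left out.

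Counts were rounded, filtered with filterByExpr, scaled by TMM and tested in edgeR 4.0.16 (R 4.3.3) by the quasi-likelihood F test, two-sided, fraction as the only term, with Benjamini-Hochberg adjustment over 14524 genes. The script was tested on simulated data. CPM use TMM-scaled totals. CPM per kb use the union of exons in GENCODE M21 (GRCm38), in which all 51 members were found by identifier, 28 with the same version. Promoter sequences are from RefSeq (GRCm38.p6). Each mouse gave both fractions from 1 lung. Deviations of its libraries from their group means correlated across genes at 0.132 to 0.285, against -0.212 to 0.0515 for libraries of different mice, so mouse numbers pair the libraries. Members and lists were chosen with earlier results of these data known. Named were all Timp genes, called members averaging 5 CPM or more in their higher fraction, uncalled ones averaging 20 CPM or more in either, and up to 4 genes with the smallest p of each other list; further names are given as exceptions or as list members. Alternatives were DESeq2, limma-voom, library size only, no filter, mouse as a block, leaving out libraries or mice, and pairs of mice.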

Additional observations from a re-analysis of the deposited data

Results flagged for a closer look

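In groups of 4 libraries, a value was taken to stand apart where its gap to the nearest other library took up nearly the whole range of the group (Dixon's criterion). This happened in 6 of 60 groups over 30 members, where chance gives about 1 in 20. In the CD249+ fraction these values were Mmp11 in mouse 8 (82.6 CPM, below the rest), Timp3 in mouse 2 (1817 CPM, below) and Adamts9 in mouse 2 (34.7 CPM, above). In the CD249- fraction they were Adamts1 in mouse 8 (688 CPM, above), Adamts15 in mouse 10 (39.3 CPM, above) and Adamtsl2 in mouse 2 (34.8 CPM, below). In 5 of these genes the fractions did not overlap. In Adamts9 they did, and it was not called.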

How the results depend on the processing

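With mouse as a replicate block, 5298 genes were called in place of 4468, and 25 members were higher and 3 lower; every call of a member was kept, and Timp1, Adamts5 and Adamts12 were added. DESeq2 gave 24 of 47 members higher and 3 lower, with 2955 and 2360 of 18554 genes, adding Adamts12 and Timp1 with no call lost. Limma-voom gave 23 and 2 of 40 members, with 2487 and 2054 of 14524 genes, losing Mmp17 and Mmp9 and adding Adamts12 and Adamts19. No low-count filter gave 21 and 3 of 47 members, with 2407 and 1868 of 18554 genes, losing Adamts3. Library size only gave 19 and 3 of 40 members, with 2106 and 2690 of 14524 genes, losing Adamts3, Adamtsl5 and Mmp3. Leaving out a library or both libraries of a mouse gave 16 to 23 members higher, 1 to 3 lower and 2978 to 4504 genes called in all. These omissions were fitted with fraction as the only term. In 16 of the 25 called members no such omission ended the call. Leaving out mouse 7, 8 or 10 whole ended the calls of Mmp3, Mmp9, Mmp17, Mmp28, Adamts2 and Adamts3, and leaving out mouse 7 or 8 whole that of Adamtsl5. With mice 2 and 10 alone (2 against 2) 668 genes were called, 10 members higher and 1 lower; Mmp2, Mmp14, Timp2 and Timp3 were among those lost, at log2 fold changes of 2.06, 1.22, 0.64 and 1.31. No called member reversed under any setting run. Of the uncalled members Adamts9 gave -0.06 in mice 7 and 8 alone and -0.16 to 0.31 on omissions, and Mmp23 gave -0.16 in mice 2 and 10 alone and -0.06 to 0.39 on omissions; the cause was not tested. The Timp ratio per kb was 0.832 in CD249+ and 1.01 in CD249- cells with the longest transcript as length. The bounds given for genes with no count cover counting error only.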
